A study of Mus musculus with 4 samples.

Results

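The GIMAP family (GTPases of immunity-associated proteins) was followed across the immune cells of subcutaneous MC38 tumours, which grow from a mouse colorectal tumour line. The 8 genes Gimap1, Gimap3, Gimap4, Gimap5, Gimap6, Gimap7, Gimap8 and Gimap9 were taken by symbol from the 32285 genes counted. They were selected on the genotype effect in these same libraries, because Gimap6 changed differently in CD8 and CD4 T cells. The tumours were raised in 8-week-old WT mice and in animals whose Trim25, a ubiquitin ligase gene, was conditionally deleted (cKO), and the series title places the loss in T cells. The sources used here name neither the Cre driver nor the deleted part of the gene. Cells were sorted for CD45, the marker of blood-derived cells, and 2 single-cell RNA libraries were made for each genotype (WT-1 and WT-2 against cKO-1 and cKO-2). Values given for 4 libraries follow that order. The labels do not say that the libraries came from separate mice, so the p-values cover only the spread among libraries, which may be technical.

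GIMAP proteins are small GTP-binding proteins that sit on intracellular membranes such as those of the endoplasmic reticulum, Golgi, mitochondria and lysosomes. They are expressed mainly in lymphocytes, where they are known for keeping resting cells alive. Loss of Gimap5 in mice empties the peripheral T cell pool, Gimap1 is needed for mature T and B cells, and GIMAP6 binds the autophagy protein GABARAPL2. The products of Gimap3 and Gimap5 are close relatives that can bind BCL2 family proteins, GIMAP4 has been tied to the timing of T cell death, and GIMAP7 stimulates the GTPase activity of family members by forming dimers. Gimap8 encodes the longest member, with several GTPase domains.

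All 8 genes lie side by side on chromosome 6 (GRCm38, chr6:48647234-48770851, a span of 124 kb), 6 on the plus strand and 2, Gimap6 and Gimap3, on the minus strand. In the GENCODE vM21 annotation the order is Gimap8 (48647234 to 48660875), Gimap9 (48676129 to 48679114), Gimap4 (48684549 to 48692060), Gimap6 (48701582 to 48708225), Gimap7 (48718621 to 48724636), Gimap1 (48739054 to 48743795), Gimap5 (48746197 to 48754210) and Gimap3 (48764464 to 48770851). All are protein-coding. The antisense gene Gimap1os covers 1107 of the 3073 exonic bases of Gimap1, and the sources used here do not say whether counting used strand, so reads of these genes may not be separable. The readthrough gene Gm28053 shares 81, 198 and 153 exonic bases with Gimap7, Gimap1 and Gimap5. In the last 500 bases of each annotated transcript, where a 3′ assay reads, 50-base words that other genes' transcripts also hold were counted. Matches to Gm28053 were left out of this count, so sharing with it was not measured. For 6 members 0% of the words were shared. The share was 2.0% for Gimap1 and 3.53% for Gimap3, none of it with another member, so family members could be told apart by sequence.

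**Figure D1:**
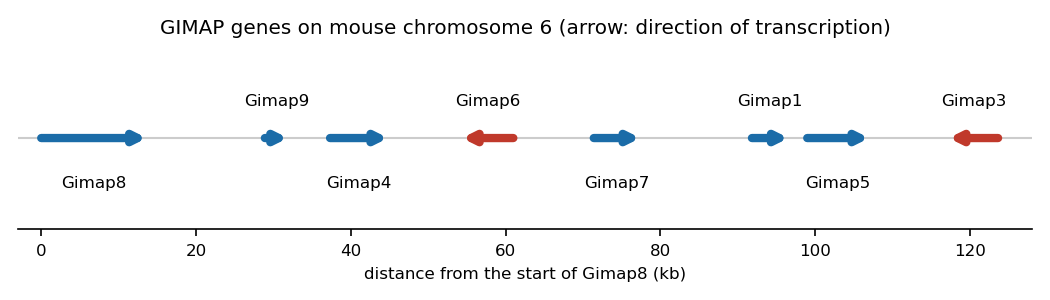
Map of the 8 GIMAP genes on chromosome 6, drawn to scale as distance in kb from the start of Gimap8, with arrows in the direction of transcription (blue, plus strand; red, minus strand). The genes fill 124 kb, and Gimap6 and Gimap3 point against the other 6.

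The promoters of Gimap6, Gimap4 and Gimap7 are shown because the levels of these 3 genes are described most closely: Gimap6 was highest in naive T and B cells, Gimap4 was the most abundant member in CD8 T cells, and Gimap7 was nearly absent from gamma-delta T cells. Each is the 250 bases before the RefSeq start site (GRCm38.p6), 5′ to 3′ on the gene's strand. Capitals mark the ETS core GGAAG and the RUNX motif TGTGGT on either strand. The positions are chr6:48708245-48708494 on the minus strand for Gimap6, and chr6:48684328-48684577 and chr6:48718371-48718620 on the plus strand for Gimap4 and Gimap7.
Gimap6: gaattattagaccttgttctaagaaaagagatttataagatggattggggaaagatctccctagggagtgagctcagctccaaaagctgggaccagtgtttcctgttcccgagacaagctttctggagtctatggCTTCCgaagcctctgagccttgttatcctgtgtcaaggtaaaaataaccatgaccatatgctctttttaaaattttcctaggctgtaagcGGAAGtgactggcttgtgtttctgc
Gimap4: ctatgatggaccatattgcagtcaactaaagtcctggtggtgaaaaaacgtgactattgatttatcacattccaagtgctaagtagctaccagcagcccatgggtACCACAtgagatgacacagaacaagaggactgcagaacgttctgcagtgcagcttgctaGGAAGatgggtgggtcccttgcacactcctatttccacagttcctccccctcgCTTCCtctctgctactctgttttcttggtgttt
Gimap7: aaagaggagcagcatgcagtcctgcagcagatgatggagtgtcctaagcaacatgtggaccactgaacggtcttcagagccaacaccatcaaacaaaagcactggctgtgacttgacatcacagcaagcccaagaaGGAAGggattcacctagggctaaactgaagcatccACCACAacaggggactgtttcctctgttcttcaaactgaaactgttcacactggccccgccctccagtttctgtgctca
GGAAG was found in 8 of the 9 RefSeq promoter windows of the family (Gimap8 has more than 1), beside 64.1% of 32851 windows of the same length over all genes. TGTGGT was found before Gimap1, Gimap4 and Gimap7, beside 14.0% of all windows. CTTTGA, a TCF or LEF core, was found before none of the members (13.8% of all windows) and TATAAA only before Gimap6 (12.4%). These are matches of letters, chosen with the sequences in view.

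The 4 libraries held 96751399, 127449324, 101176581 and 115111783 UMIs, with a median of 7796 to 10017 UMIs per cell. Between 42 and 59 cell barcodes were shared by each pair of libraries, at most 0.633% of the smaller library. Clusters of cells were named from marker genes, and a class name stands for cells that resemble that class. The CD8 T class carried Cd8a and Cd8b1 at a summed 1242 to 1405 CPM (counts per 1e+06 UMIs of the class sum), against 54.5 to 73.0 CPM in CD4 conventional T cells. The CD4 conventional T class also held Il17a at 381 ± 107 CPM (SD, n = 4 libraries). Cycling CD8 T and cycling NK clusters were kept apart, and naive T cells were kept as 1 class. Treg and gamma-delta T cells were not split by cycling. The 6 cycling markers summed to 742 to 1175 CPM in Treg and 196 to 1070 CPM in gamma-delta T cells. They summed to 336 to 428 CPM in CD8 T and 231 to 275 CPM in NK cells. T or NK clusters without a class name held 3.90%, 4.14%, 4.62% and 4.19% of the cells, and other clusters without a name 12.4%, 9.90%, 10.6% and 5.09%. Trim25 mRNA was still present in each class and library. In CD8 T cells its level was 58.8 CPM in both WT libraries, and 45.7 and 43.3 CPM in the cKO libraries, and in B cells at 142, 141, 172 and 160.0 CPM. It passed the test over all genes in none of the 6 lymphocyte classes tested (lowest adjusted p = 0.476, edgeR). A 3′ tag outside the deleted part would not show the deletion.

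GIMAP mRNA was a lymphocyte signal in these tumours. The 8 members together made up 2618 ± 245 CPM in Treg (regulatory T cells) and 2547 ± 147 CPM in naive T cells (SD, n = 4 libraries throughout this paragraph). CD4 conventional T cells followed at 1739 ± 170, B cells at 1711 ± 190, NK cells at 1704 ± 161 and CD8 T cells at 1612 ± 173 CPM. Treg and naive T cells overlapped in their ranges over libraries, and so did the 4 classes from CD4 conventional T to CD8 T, but the lowest naive T library (2331 CPM) lay above the highest CD4 conventional T library (1941 CPM). Gamma-delta T cells, here an IL-17-type cluster led by Cd163l1, Abi3bp and Il17a, stood lowest among lymphocytes at 834 ± 87.7 CPM. Outside lymphocytes, mast cells or basophils held 479 ± 202 CPM and plasmacytoid dendritic cells 201 ± 16.7 CPM. Monocytes, macrophages, neutrophils and the other dendritic cells stayed between 20.5 and 102 CPM, so that the Treg level was 87.6 times the macrophage level (29.9 ± 5.44 CPM).

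**Figure D2:**
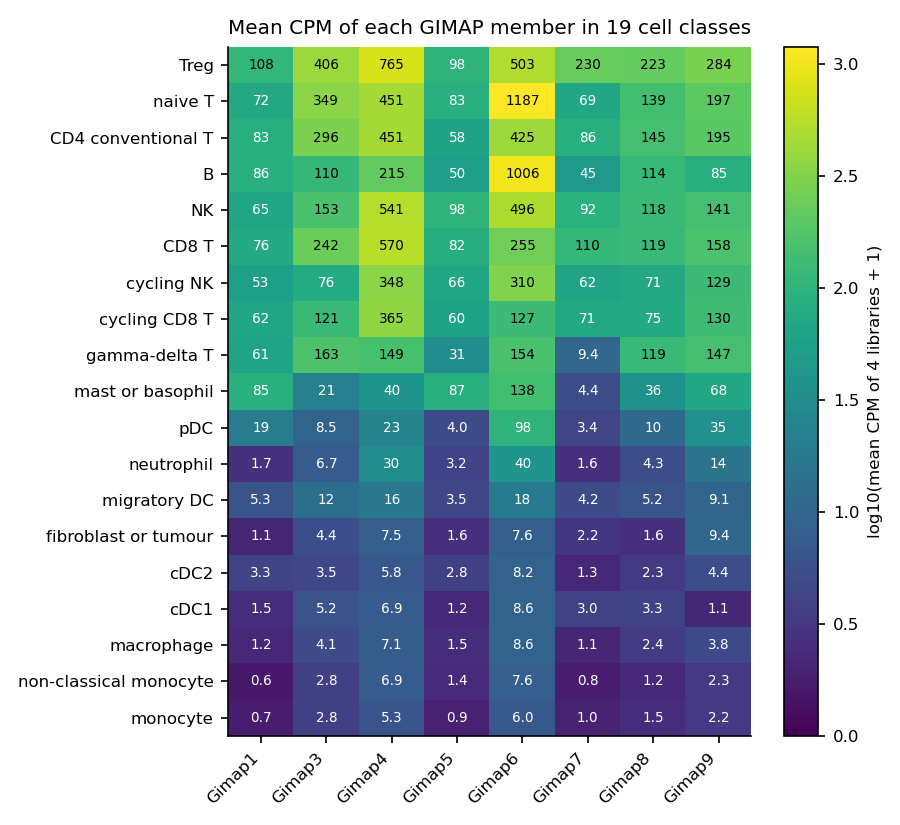
Mean CPM over 4 libraries of each GIMAP member (columns) in 19 cell classes (rows, ordered by the sum of the 8), coloured on a log10 scale. The 7 members other than Gimap6 peak in Treg and Gimap6 in naive T cells, while monocytes, macrophages and conventional dendritic cells hold at most 8.62 CPM of any member.

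The share of cells with a GIMAP UMI was also compared at equal depth, where the lymphocyte classes took another order than in the class sums. With each cell thinned to 2000 UMIs, a UMI of any member was found in 98.5% of naive T, 97.4% of Treg, 93.0% of B, 92.7% of NK, 91.7% of CD8 T, 86.9% of CD4 conventional T and 69.4% of gamma-delta T cells (means of 4 libraries). Monocytes gave 4.08% and macrophages 7.04%, given beside as classes of low level. The source of the UMIs in these 2 classes was not tested. For Gimap6 alone the thinned share was 80.8% ± 3.5 in naive T, 77.5% ± 3.9 in B, 59.6% ± 3.3 in NK, 53.3% ± 6.6 in Treg, 43.3% ± 3.7 in CD4 conventional T, 39.1% ± 6.5 in CD8 T and 20.3% ± 6.1 in gamma-delta T cells (SD, n = 4), with 1.28% in monocytes and 2.21% in macrophages. Unthinned, the Gimap6 shares were 93.4%, 84.6%, 92.1%, 79.3%, 61.9%, 75.1% and 32.4% in the same order, and 5.98% in monocytes. Median depth ran from 3206 UMIs in B cells to 10264 in NK cells, and was 11652.5 in monocytes and 5286 in macrophages. Thinning left out 168 WT and 98 cKO B cells, the most of the 7 lymphocyte classes.

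Gimap6 had the widest span among lymphocytes in CPM, while Gimap7 had a wider one as a ratio. In naive T cells it stood at 1294, 1248, 1053 and 1152 CPM, and in B cells at 1070.3, 1097, 811 and 1046 CPM. Naive T and B cells overlapped, and both lay above every other class. Treg (503 ± 87.0 CPM) and NK cells (496 ± 54.0 CPM) overlapped. CD4 conventional T cells followed at 425 ± 22.3 CPM, below every NK library but overlapping with Treg. CD8 T cells stood at 255 ± 67.4 CPM, so that naive T cells held 4.66 times and B cells 3.95 times the CD8 T level. In gamma-delta T cells the mean was 154 ± 84.2 CPM. Gimap6 alone made up 58.8% of the family's UMIs in B cells and 46.6% in naive T cells, against 15.8% in CD8 T cells.

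Gimap4 was the most abundant member in Treg, CD8 T, NK and CD4 conventional T cells. In CD4 conventional T cells it held 25.9% of the family's UMIs, with Gimap6 close at 24.4%. In gamma-delta T cells Gimap3 held 19.6% and Gimap4 17.8%. The mean of Gimap4 was 765 ± 54.1 CPM in Treg, 570 ± 46.7 CPM in CD8 T, 541 ± 64.1 CPM in NK, 451 ± 69.0 CPM in CD4 conventional T and 451 ± 24.2 CPM in naive T cells. The Treg libraries (686 to 806 CPM) lay above all others, while CD8 T, NK and CD4 conventional T cells overlapped as neighbours. B cells held 215 ± 28.9 CPM and gamma-delta T cells 149 ± 18.7 CPM, with no overlap between them.

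Gimap7 was the member most concentrated in Treg, at 277, 234, 171 and 237 CPM, which was 2.09 times the CD8 T mean of 110 ± 15.2 CPM. Each Treg library lay above all libraries of every other class. In gamma-delta T cells only 3, 4, 1 and 8 Gimap7 UMIs were counted, 9.41 ± 5.06 CPM, which is 24.4 times below Treg. B cells held 45.1 ± 18.9 CPM.

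Gimap3 was graded from T cells to other lymphocytes, at 406 ± 37.2 CPM in Treg, 349 ± 15.5 in naive T, 296 ± 35.8 in CD4 conventional T, 242 ± 17.2 in CD8 T, 163 ± 27.4 in gamma-delta T, 153 ± 20.2 in NK and 110 ± 9.51 in B cells. Treg overlapped with naive T, CD4 conventional T with CD8 T, and gamma-delta T with NK cells, and the other neighbours among these 7 did not. Gimap5, its close relative, had a flatter and lower profile, led by Treg (98.4 ± 7.09 CPM) and NK cells (97.6 ± 10.5 CPM), with naive T (83.4 ± 9.27) and CD8 T cells (82.5 ± 6.39) close behind and CD4 conventional T (58.1 ± 15.7), B (49.8 ± 6.32) and gamma-delta T cells (31.2 ± 14.5) lowest. Mast cells or basophils held 87.1 ± 14.0 CPM of Gimap5 and 85.0 ± 16.8 CPM of Gimap1, in the range of T cells, where the other 6 members were at 4.38 to 138 CPM.

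Gimap8, Gimap9 and Gimap1 complete the family. Gimap8 was at 223 ± 6.89 CPM in Treg, above every other class without overlap, and between 114 and 145 CPM in the other 6 lymphocyte classes. Gimap9 was at 284 ± 40.7 CPM in Treg, also without overlap, and at 85.0 ± 14.0 CPM in B cells, the lowest lymphocyte class. Gimap1 varied least, from 108 ± 12.1 CPM in Treg to 61.2 ± 8.22 CPM in gamma-delta T cells, with every pair of neighbours overlapping. Its antisense neighbour Gimap1os was at 40.3 ± 5.25 CPM in Treg and 15.5 ± 4.55 CPM in B cells.

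**Figure D3:**
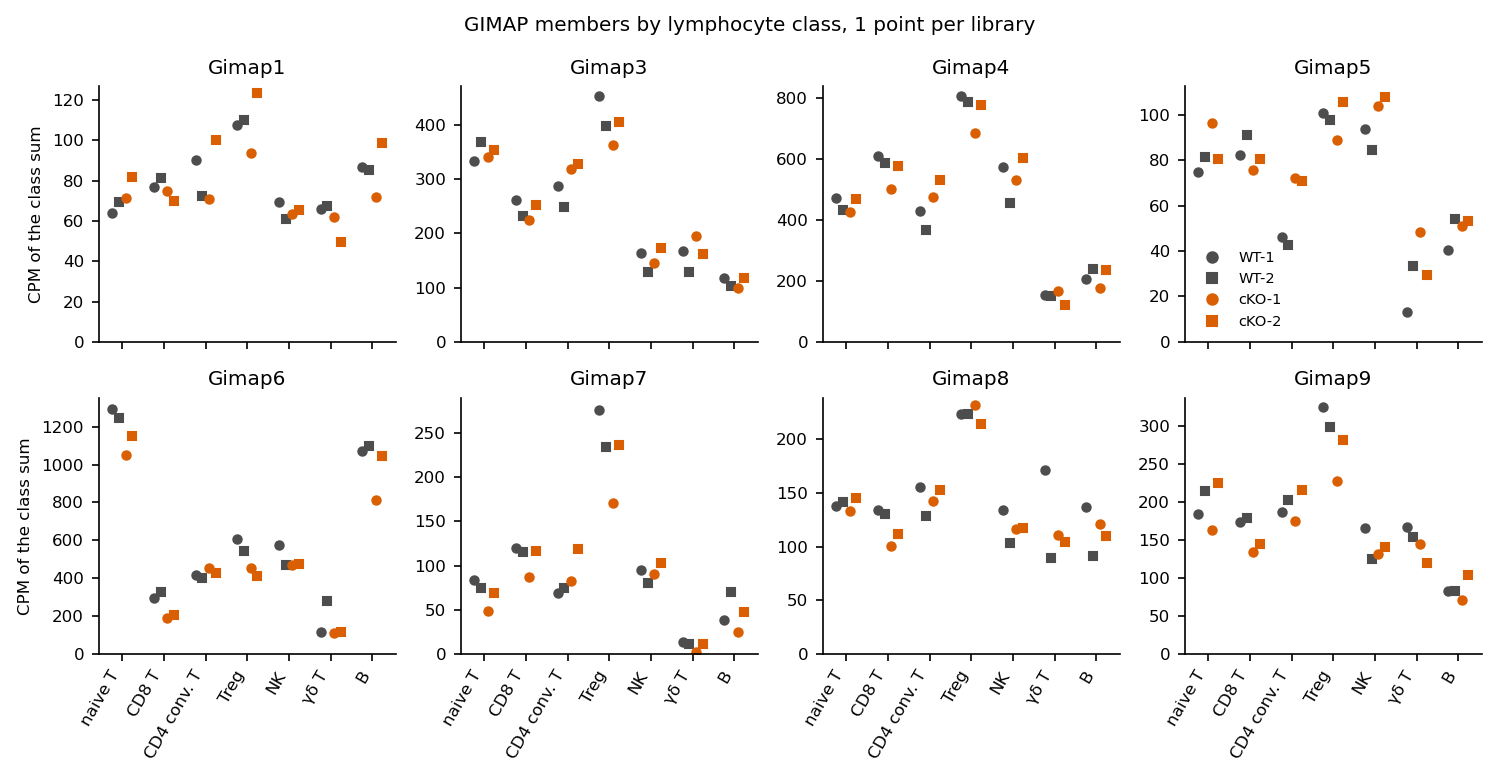
CPM of each GIMAP member (8 panels) in 7 lymphocyte classes, 1 point per library (grey WT, orange cKO; circles replicate 1, squares replicate 2). Gimap6 is highest in naive T and B cells, the other members in Treg, and Gimap7 is near 0 in gamma-delta T cells.

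Across the 19 named classes the members varied together. Pearson's r of log2(mean CPM + 1) ranged from 0.865 (Gimap1 with Gimap7) to 0.980 (Gimap3 with Gimap8) over the 28 pairs, a description over classes that share libraries. Of 9807 genes outside the family, the 5 most like Gimap6 over the 19 classes were Gpr174 (r = 0.95), a lysophosphatidylserine receptor gene of lymphocytes, Ablim1 (0.95), which encodes an actin-binding protein, Prkd2 (0.94), a kinase gene of antigen receptor signalling, Cd55 (0.93), a complement inhibitor gene, and Ptprcap (0.92), whose product associates with CD45. The 5 most like the sum of the 8 members were Ptprcap (0.95), Ablim1 (0.95), Slain1 (0.95), Tnik (0.95) and Gpr174 (0.95).

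Within CD8 T cells the family differed between clusters. Cluster 12, led by Gzmk, Ccl5 and Themis, held Gimap6 at 608.5, 749.6, 450.1 and 589.3 CPM. Cluster 14, led by Cd8a, Gm156 and Cd8b1, held 191, 193, 124 and 165 CPM, so no library of it reached any library of cluster 12. Cycling CD8 T cells (cluster 2, led by Pclaf, Top2a and Nusap1) were lowest, at 167, 123, 107 and 113 CPM. The sum of the 8 followed the same order, at 2209 to 2788 CPM in cluster 12, 1182 to 1456 CPM in cluster 14 and 931 to 1090 CPM in cycling cells.

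NK clusters differed in the same way. Cluster 9, led by Ccl5, Ccl4 and Klra4, held Gimap6 at 926, 1002, 782 and 772 CPM, cluster 3 (Ifi44, Klrb1b and Cxcl10) at 644 to 816 CPM, cluster 8 (Gzmc, Ccl1 and Slc24a3) at 464, 405, 362 and 331 CPM, and cluster 13 (Gzmd, Gzmg and Gzme) at 163 to 278 CPM. The granzyme-rich clusters 8 and 13 were thus below clusters 9 and 3 in all 4 libraries. A T or NK cluster without a class name (6, led by Tcrg-C4, Ly6c2 and Klra6) held 781, 885, 645 and 589.9 CPM.

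**Figure D4:**
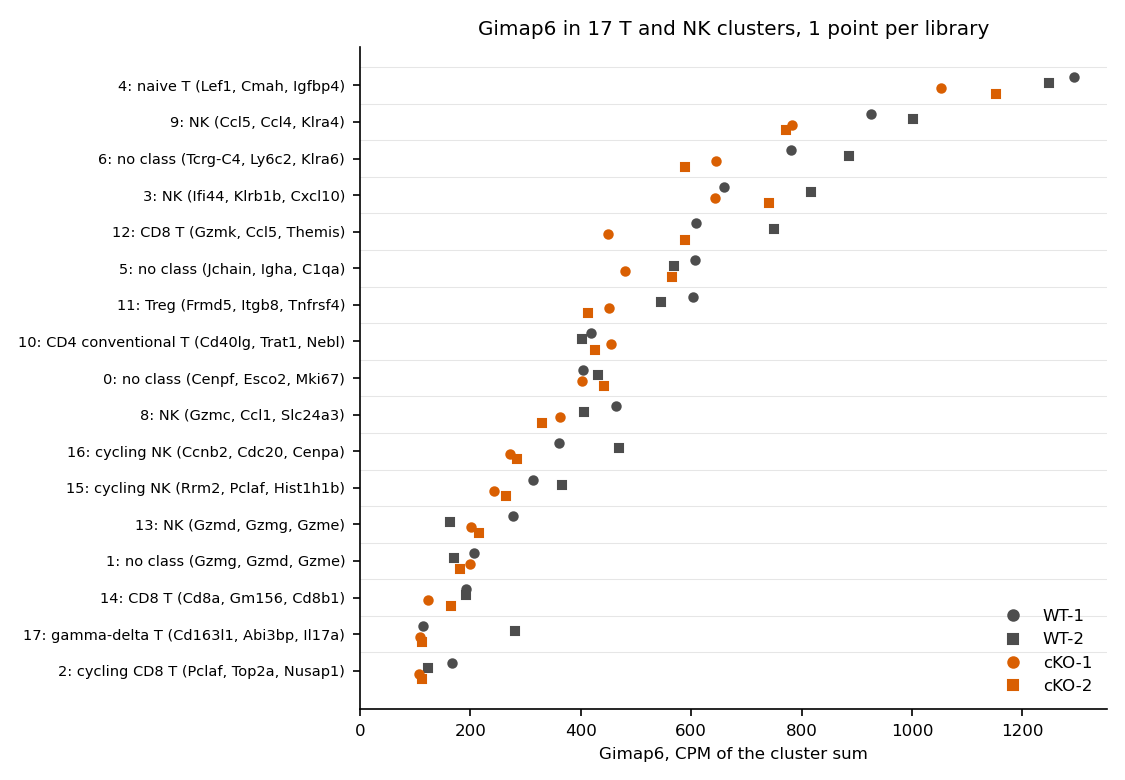
Gimap6 in CPM of the cluster sum (x axis) in 17 T and NK clusters (rows, with class and leading genes), 1 point per library (grey WT, orange cKO). Both cKO points lie left of both WT points in 12 clusters and right of them in 1, cluster 10 of CD4 conventional T cells.

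The genotype comparison asks whether loss of Trim25 goes with another GIMAP level in each class. In CD8 T cells, the contrast that picked the family, Gimap6 was at 297 and 327 CPM in the WT libraries and at 191 and 205 CPM in the cKO libraries, so the genotypes did not overlap. Its log2 fold change was -0.65 ± 0.13 (SE, edgeR, cKO over WT), given as a description with no test. With all 4 libraries the 8 members had fitted values below 0, from -0.33 ± 0.13 for Gimap9 and -0.30 ± 0.13 for Gimap8 to -0.03 ± 0.13 for Gimap3. In 6 of 8 members both cKO libraries lay below both WT libraries, beside 19.5% of the 10765 genes tested in the class. Over those genes 0.0279% were called in either direction (edgeR, adjusted p threshold 0.05). The median over the 8 was -0.16, and -0.00 over all genes. Without WT-1, 7 of 8 members were below 0 (Gimap3 at 0.043), and without cKO-1, 6 of 8 (Gimap3 at 0.060 and Gimap7 at 0.011). The median was -0.12 without cKO-1 and -0.32 without cKO-2.

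The mix of CD8 clusters moved with the genotype. Cluster 12, the cluster of high GIMAP levels, held 36.9% and 42.5% of the CD8 T cells in the WT libraries but 29.9% and 17.1% in the cKO libraries. Markers of naive T cells, as a list of 6, summed to 195 and 186 CPM in the WT and 179.9 and 132 CPM in the cKO libraries, with none of them at 0. Within clusters the Gimap6 difference was smaller, with a log2 ratio of mean CPM of -0.39 in cluster 12 and -0.41 in cluster 14, each without overlap of the genotypes. With the clusters held at fixed shares Gimap6 was at 274 and 303 CPM in WT and 189 and 249 CPM in cKO, a log2 ratio of -0.40 against -0.66 with each library's own mix. The sum of the 8 members then differed by -0.14, against -0.25.

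In CD4 conventional T cells, also part of that contrast, Gimap6 was at 418 and 402 CPM in WT and at 456 and 425 CPM in cKO, higher in both cKO libraries (log2 fold change 0.11 ± 0.14, SE, edgeR). Gimap5 was at 46.1 and 42.9 CPM in WT and 72.4 and 70.9 CPM in cKO (0.69 ± 0.22), Gimap7 had a value of 0.48 ± 0.20, Gimap4 of 0.34 ± 0.14 and Gimap3 of 0.28 ± 0.15. These 5 members were higher in both cKO than in both WT libraries, beside 18.2% of 8747 genes tested (0.366% were called in either direction by edgeR), and Gimap1, Gimap8 and Gimap9 overlapped. The median of the 8 was 0.19, and 0.00 over all genes. It was 0.29 without WT-1 and 0.31 without cKO-1, and with 1 library left out up to 2 members were below 0. The summed macrophage markers (8 genes, none at 0) were also higher in this class in cKO, at 1516 and 1547 against 1097 and 924 CPM, and their part in the result was not tested.

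The mix of cells within CD4 conventional T cells also differed between the genotypes, and its part in the Gimap6 result was not tested. At Leiden resolution 2 the class split into a cluster led by Nebl, Il17a and Trat1 and a cluster led by Cd40lg, Cd4 and Slamf6. The Il17a cluster held 57.1% and 61.6% of the class in the WT libraries and 46.6% and 33.1% in the cKO libraries. Gimap6 was low in that cluster, at 198, 207, 243 and 154 CPM, where the genotypes overlapped. In the Cd4-led cluster it was at 754 and 732 CPM in WT and 641 and 571 CPM in cKO, lower in both cKO libraries (log2 ratio of mean CPM -0.29). With both clusters held at fixed shares, Gimap6 was at 475 and 469 CPM in WT and 441 and 361 CPM in cKO, a log2 ratio of -0.23, against 0.13 with each library's own mix. CD8 T cells, at fixed shares of their clusters of resolution 1, also had lower Gimap6 values in cKO. In CD4 conventional T cells the higher class level of Gimap6 in cKO was not seen at fixed shares. Gimap5 and Gimap3 stayed higher in both cKO libraries (0.33 and 0.10, against 0.65 and 0.30). Gimap4 (0.05 against 0.35), Gimap7 (0.09 against 0.50) and Gimap1 (-0.04 against 0.07) overlapped. Gimap9 (-0.20 against 0.02) and Gimap8 (-0.09 against 0.07) were, like Gimap6, lower in both cKO libraries at fixed shares. The sum of the 8 was at -0.04 against 0.23, also lower in both cKO libraries at fixed shares.

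Fitted together with the library as a term, the genotype effect on Gimap6 was 0.75 ± 0.14 higher on the log2 scale in CD4 conventional T than in CD8 T cells. That difference is what the genes were picked on, and it was fitted on class sums with each library's own mix of clusters. It ranged from 0.65 to 0.86 when each library was left out in turn. For the other members it was 0.84 ± 0.23 for Gimap5, 0.68 ± 0.20 for Gimap7, 0.48 ± 0.13 for Gimap4, 0.37 ± 0.18 for Gimap8, 0.32 ± 0.17 for Gimap9, 0.31 ± 0.15 for Gimap3 and 0.19 ± 0.22 for Gimap1. The Gimap1 value ran from -0.12 to 0.48 when each library was left out in turn, so its direction did not hold.

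**Figure D5:**
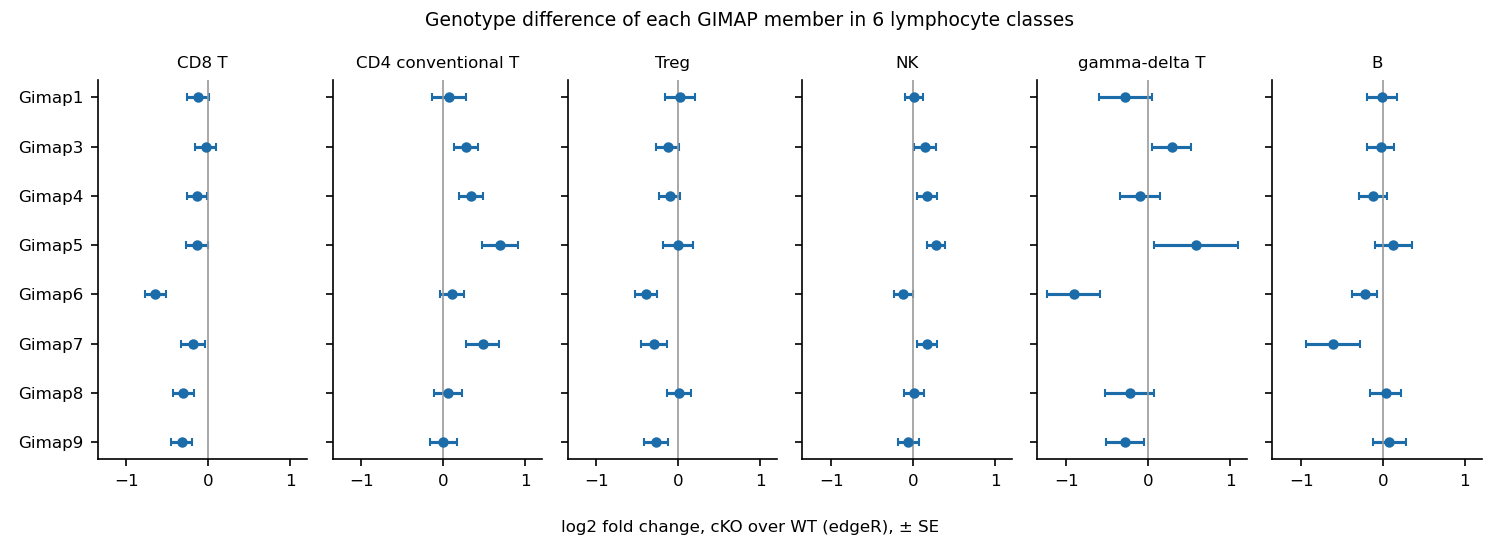
Log2 fold change of each GIMAP member, cKO over WT (x axis, points ± SE from edgeR), in 6 lymphocyte classes. All 8 points lie below 0 in CD8 T cells, Gimap6 lies near 0 in CD4 conventional T cells and below 0 in the other 4 classes, and Gimap7 was too low for the test in gamma-delta T cells.

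The remaining classes were not used in choosing the genes. In Treg, Gimap6 was at 604 and 545 CPM in WT and at 452 and 413 CPM in cKO, without overlap. Its log2 fold change was -0.39 ± 0.13 (SE), which did not pass the test over all genes (edgeR, adjusted p = 0.545, n = 2 libraries per genotype). None of the 8 members was called in Treg with edgeR or DESeq2, beside 0.108% of 9223 genes called, and Gimap6 was the only one with an unadjusted p under 0.05. Gimap4, Gimap6 and Gimap9 were lower in both cKO libraries, 3 of 8 beside 18.6% of genes, and the median was -0.12 against 0.00 over all genes. The naive T markers summed to 600.1 and 494 CPM in WT and 466 and 465 CPM in cKO. Macrophage markers summed to 835 and 1042 CPM in WT and 1337 and 1121 CPM in cKO, and Cd8a with Cd8b1 to 18.3 and 22.4 CPM in WT and 44.5 and 50.1 CPM in cKO, with no marker at 0. The part of these markers in the result was not tested.

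In NK cells the fitted values of the 8 members lay between -0.12 and 0.28. Gimap6 was at 577, 466, 469 and 473 CPM, with WT-1 alone standing high (log2 fold change -0.12 ± 0.12, SE; edgeR, adjusted p = 0.955). Without WT-1 the value was 0.022. Gimap5 was at 93.7 and 84.7 CPM in WT and 104 and 108 CPM in cKO, without overlap (0.28 ± 0.11, SE; edgeR, adjusted p = 0.754). None of the 8 members was called, as for all 11789 genes (0% called by edgeR, 729 with an unadjusted p under 0.05, and 4 called by DESeq2), and Gimap5 was the only member with an unadjusted p under 0.05. It was the 1 of 8 members higher in both cKO libraries, beside 13.7% of genes, and 0 of 8 were lower in both, beside 20.9%.

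The mix of NK clusters differed in 1 library. Cluster 9, high in Gimap6, held 32.4% of NK cells in WT-2 and 44.9% to 45.5% in the other libraries. With clusters at fixed shares, Gimap6 in NK cells was at 556 and 542 CPM in WT and at 459 and 455 CPM in cKO, a log2 ratio of -0.26 without overlap, against -0.15 with each library's own mix. Within cluster 9 it was -0.31 and within cluster 8 -0.33, both without overlap, while clusters 3 and 13 overlapped.

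Gamma-delta T cells were few, with 38, 71, 92 and 130 cells. Gimap6 was at 114, 280.3, 109 and 113 CPM, from 26, 100, 56 and 80 UMIs, so that WT-2 alone stood high and the 3 other libraries were close together. The log2 fold change was -0.91 ± 0.33 (SE; edgeR, adjusted p = 0.607). Without WT-1 it was -1.34 and passed the test (edgeR, adjusted p = 0.000412), which then rested on the single WT-2 library and its assumed spread. Gimap7 did not reach the count filter, and none of the other 7 members was called, as for all 5987 genes (0% called by edgeR, 423 with an unadjusted p under 0.05, none called by DESeq2). Gimap6 was the only member with an unadjusted p under 0.05, and Gimap1, Gimap6 and Gimap9 were lower in both cKO libraries, 3 of 8 beside 17.4% of genes. Macrophage markers in this class summed to 383 and 356 CPM in WT and 735 and 921 CPM in cKO, and Cd8a with Cd8b1 to 81.3 CPM in WT-2 against 8.80 to 13.6 CPM in the others. The 6 cycling markers summed to 1070 CPM in WT-1 and 196 CPM in WT-2, and to 388 and 407 CPM in cKO. What these 3 sets of markers contribute to the result was not tested.

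In B cells, which the series title does not place among the cells losing Trim25, Gimap6 was at 1070.3 and 1097 CPM in WT and 811 and 1046 CPM in cKO. The cKO-1 library stood low and the others were close together (log2 fold change -0.23 ± 0.15, SE; edgeR, adjusted p = 0.674). Gimap7 had the lowest fitted value, -0.61 ± 0.33 (SE; edgeR, adjusted p = 0.574), from 38.2, 70.0, 25.2 and 47.1 CPM that overlapped between genotypes. None of the 8 members was called by edgeR or DESeq2 or had an unadjusted p under 0.05, beside 0.311% of 8685 genes called, and Gimap6 was the 1 member lower in both cKO libraries, beside 20.1%. The 6 plasma cell markers summed to 6952 and 17735 CPM in WT and 3479 and 3713 CPM in cKO, and their part was not tested.

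Naive T cells and the cycling clusters, described without a test, gave Gimap6 values in the same direction as CD8 T cells. The log2 ratio of mean CPM was -0.20 in naive T cells (cluster 4), -0.40 in cycling CD8 T cells (cluster 2), and -0.43 and -0.57 in the cycling NK clusters 15 and 16, each without overlap of the genotypes. Over the 17 T and NK clusters Gimap6 was lower in both cKO libraries in 12 and higher in 1. Of the 4067 genes with a mean of at least 20 CPM in each of these clusters, 0.295% were lower in both cKO libraries in as many clusters or more, and the median gene was lower in 3 and higher in 2. Gimap9 was lower in 8 clusters, a count that 5.16% of these genes reached. The 12 include CD8 T clusters and the 1 is the CD4 conventional T cluster, all part of the contrast that picked the gene, so these counts are a description. Clusters 8, 9, 15 and 16 of the 12 are NK cells, which the series title does not place among the cells losing Trim25. In NK cells Trim25 was at 49.7 and 49.2 CPM in WT and 42.8 and 48.0 CPM in cKO. The clusters share their 4 libraries and are not replicates. In such sums fewer cells of high level and less RNA per cell cannot be told apart.

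Autophagy conjugation genes, the ATG8 proteins and their machinery to which GIMAP6 is linked, showed no call in any of the 6 classes. Of 15 genes, 15 were tested in CD8 T, Treg and NK cells, 14 in CD4 conventional T and B cells and 11 in gamma-delta T cells. Medians were 0.06 in CD8 T, 0.11 in CD4 conventional T, -0.03 in Treg, 0.12 in NK, 0.03 in gamma-delta T and 0.07 in B cells, each within 0.12 of the median of all genes. The largest fitted values were Map1lc3a (-0.61 ± 0.35), Atg12 (0.29 ± 0.15) and Ulk1 (0.21 ± 0.42) in CD8 T cells, Ulk1 (0.67 ± 0.43), Atg12 (0.36 ± 0.23) and Sqstm1 (0.33 ± 0.19) in CD4 conventional T cells, and Ulk1 (0.64 ± 0.38), Gabarapl1 (-0.63 ± 0.47) and Atg4b (-0.33 ± 0.29) in Treg.

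Lymphocyte survival genes (BCL2 family, Il7r and Gsk3b) also gave 0 calls of 14 tested in CD8 T, CD4 conventional T, Treg and NK cells, 11 in gamma-delta T and 13 in B cells, with medians from -0.14 in B to 0.15 in gamma-delta T cells. Bcl2l11, which encodes the pro-death protein BIM, had the largest value in CD8 T cells (0.50 ± 0.13; edgeR, adjusted p = 0.203) and CD4 conventional T cells (0.49 ± 0.25). In CD8 T cells Bbc3 (-0.47 ± 0.47) and Bad (-0.25 ± 0.23) followed. In CD4 conventional T cells the pro-survival genes Bcl2a1d (0.47 ± 0.16) and Bcl2a1b (0.43 ± 0.14) followed, and in Treg the largest were Bbc3 (0.84 ± 0.50), Bcl2a1d (0.45 ± 0.17) and Il7r (-0.43 ± 0.13), the interleukin-7 receptor gene.

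Quiescence and naive T cell genes gave 0 calls of 16 in CD8 T, CD4 conventional T, Treg and NK cells, 14 in gamma-delta T and 15 in B cells. The median was -0.16 in CD8 T cells and -0.17 in Treg, and 0.07 in CD4 conventional T, 0.28 in NK, 0.11 in gamma-delta T and 0.24 in B cells. Among the genes reported here, the largest values in CD8 T cells were Lef1 (-0.82 ± 0.21; edgeR, adjusted p = 0.206), a transcription factor of naive and memory T cells, and S1pr1 (-0.51 ± 0.29), a receptor for tissue egress. In CD4 conventional T cells they were Bach2 (0.43 ± 0.20) and Klf3 (0.40 ± 0.18), and in Treg Bach2 (-0.87 ± 0.24), Ccr7 (0.58 ± 0.42) and S1pr1 (-0.41 ± 0.23).

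Among the other immune GTPases, the interferon-induced IRG and GBP families, 1 gene was called. Iigp1 was lower in cKO B cells (-2.46 ± 0.42, SE; edgeR, adjusted p = 0.0258), 1 of 9 tested there, beside 27 of 8685 genes called. At Leiden resolution 2 only 5 of 8510 genes were called in B cells, and Iigp1 was not followed in that setting. The part of the plasma cell markers, higher in WT B cells, was not tested. The list's median was -0.26 in CD8 T cells, with Irgm2 (-0.50 ± 0.21), Iigp1 (-0.47 ± 0.15) and Gbp5 (-0.44 ± 0.23) largest, and -0.40 in B cells, against 0.09 in CD4 conventional T cells, -0.01 in Treg, -0.07 in NK and 0.32 in gamma-delta T cells. In CD4 conventional T cells Gbp3 (0.40 ± 0.22), Gbp5 (-0.33 ± 0.29) and Irgm1 (0.32 ± 0.17) were largest, and in Treg Iigp1 (-0.27 ± 0.16), Irgm1 (0.18 ± 0.17) and Gbp6 (-0.18 ± 0.19).

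Small GTPases and regulators of lymphocyte traffic, a list of 12 tested in full in every class, had no call and medians between -0.04 and 0.03. The largest values were Dock2 (-0.24 ± 0.12), Dock8 (0.20 ± 0.13) and Arhgap15 (-0.18 ± 0.12) in CD8 T cells, Rac2 (0.35 ± 0.14), Rap1b (0.18 ± 0.14) and Dock2 (-0.16 ± 0.12) in CD4 conventional T cells, and Rac2 (0.23 ± 0.13), Arhgdib (0.21 ± 0.13) and Rhoh (-0.16 ± 0.14) in Treg.

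Of 52 annotated genes that start within 500 kb of the cluster, 4 to 11 were expressed highly enough to be tested in a class, and none was called. In CD8 T cells the largest values were Igf2bp3 (0.78 ± 0.25), Tmem176b (0.47 ± 0.21) and the non-coding 4833403J16Rik (-0.35 ± 0.21), with a median of 0.05. In CD4 conventional T cells they were Igf2bp3 (1.13 ± 0.47), Krba1 (-0.76 ± 0.51) and Tmem176a (-0.66 ± 0.17; edgeR, adjusted p = 0.0900), with a median of -0.27. In Treg they were Igf2bp3 (-0.86 ± 0.33), Krba1 (-0.67 ± 0.45) and Tmem176b (0.42 ± 0.29), with a median of -0.05. Values lay below 0 for 4 of 11 genes tested in CD8 T cells, 6 of 8 in CD4 conventional T cells and 7 of 10 in Treg. An unadjusted p under 0.05 (edgeR) was found for 4 of the 8 in CD4 conventional T cells, beside 761 of 8747 genes. It was found for 2 of 11 in CD8 T cells and 1 of 10 in Treg, beside 782 of 10765 and 522 of 9223 genes. The part of the changed mix of CD4 conventional T cells was not tested.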

How the data were processed

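CD45-sorted cells of MC38 tumours were profiled with Chromium 3′ v3 chemistry, 2 libraries per genotype. Counts of UMIs per gene and cell were deposited as 1 matrix per library, and Cell Ranger, STAR and mm10 are named, per the submitters' processing notes, without versions. The members, gene lists, classes to compare and rules for named genes were chosen with earlier results of these data known.

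Filters of 300 genes, 500 UMIs and 15% mitochondrial UMIs left 8205 to 12092 cells per library. Scrublet's automatic threshold marked 0 or 1 cell per library, so cells with a doublet score over 0.2 and clusters with a median score over 0.1 were left out. The cells were clustered with scanpy 1.11.5 (2000 variable genes without the GIMAP genes, 30 components, 15 neighbours, Leiden resolution 1, leidenalg 0.10.2). Clusters were named from marker lists, with score limits set after seeing the clusters, and those with too few of their markers were given no class. T and NK cells were clustered again alone. Sums of raw counts over the cells of a class in a library were the unit of analysis. Levels are CPM of the class sum over all genes. A 3′ assay counts 1 tag per molecule, so values were not divided by gene length.

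Genotypes were compared with edgeR 4.0.16 (quasi-likelihood test, TMM, filterByExpr, Benjamini-Hochberg adjustment over all genes of a class, threshold 0.05) in R 4.3.3 with limma 3.58.1, in 6 lymphocyte classes, each with at least 20 cells per library. DESeq2 1.42.0 served as an alternative. The procedure was tested on simulated data. With 2 libraries a side the smallest exact permutation p is 0.333, so none is given. CD8 T and CD4 conventional T values of members carry no p because that contrast picked the genes. All 8 members are given in each class. From each list, the 3 genes with the largest fitted change are named in CD8 T, CD4 conventional T and Treg cells, and called genes in all 6 classes. 1 gene of the quiescence list that this rule names is not reported here. Alternatives were DESeq2, other size factors, no count filter, a replicate block, leaving out each library, Leiden resolution 2, doublets kept, GIMAP genes in the clustering, means over cells, and cells unthinned or thinned to 1000 UMIs. Cycling cells included and clusters at fixed shares (in CD8 T, NK and, at Leiden resolution 2, CD4 conventional T cells) were added after seeing the data.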

Additional observations from a re-analysis of the deposited data

Results flagged for a closer look

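For 3 members both libraries of each genotype moved one way in 1 class and the opposite way in another. The share of all genes that met this rule was not counted, so whether 3 members exceed that background is not known. Within single classes, 17.4% (gamma-delta T) to 20.9% (NK) of genes were lower in both cKO than in both WT libraries. From 13.7% (NK) to 20.1% (B) were higher. The differences outside the CD8 T against CD4 conventional T pair were not tested, and that pair belongs to the contrast by which the genes were chosen. The fitted log2 fold changes of Gimap6 in CD4 conventional T cells lay above those in CD8 T cells by 0.76, in Treg by 0.50, in gamma-delta T cells by 1.02 and in B cells by 0.33. For Gimap4 the CD4 conventional T value lay 0.48 above CD8 T cells and 0.45 above Treg. For Gimap5 the CD4 conventional T value lay 0.83 above CD8 T cells, and the NK value lay 0.42 above CD8 T cells. These values come from class sums with each library's own mix of clusters. At fixed shares the log2 ratio of Gimap6 was -0.23 in CD4 conventional T cells (clusters of Leiden resolution 2) and -0.40 in CD8 T cells (resolution 1). For Gimap6 the opposite directions of the 2 classes did not hold there. Gimap5 stayed opposite, at 0.33 in CD4 conventional T and -0.13 in CD8 T cells, each without overlap of the genotypes. Gimap4 was at 0.05 in CD4 conventional T and -0.09 in CD8 T cells, with overlap in both.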

How the results depend on the processing

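The counts of called genes moved with the settings in every class, and the cause was not tested. With edgeR as reported they were 3 in CD8 T, 32 in CD4 conventional T, 10 in Treg, 0 in NK, 0 in gamma-delta T and 27 in B cells. DESeq2 called 14 in CD8 T, 14 in CD4 conventional T, 2 in Treg and 4 in NK cells. Without the filter on low counts the numbers were 162, 90, 30, 120, 37 and 252 in the 6 classes in the order above. The replicate block gave 147 in CD8 T, 93 in CD4 conventional T, 69 in NK, 13 in gamma-delta T and 255 in B cells. Libraries of the same number correlated by only 0.0076 to 0.068 in their deviations, so they share a number and no known pairing. Leiden resolution 2 gave 11 in CD8 T, 14 in CD4 conventional T and 5 in B cells, doublets kept gave 18 in CD4 conventional T and 2 in Treg, GIMAP genes in the clustering gave 0 in CD8 T and 11 in CD4 conventional T, and cycling cells included gave 9 in CD8 T cells. Leaving out each library gave 12 to 217 in CD8 T, 6 to 119 in CD4 conventional T, 11 to 33 in Treg, 1 to 512 in NK, 6 to 69 in gamma-delta T and 102 to 217 in B cells, with the lone library of a genotype assumed to vary like the others. The number of GIMAP members called was 0 in Treg, NK and B cells under all alternatives run, and 0 to 1 in gamma-delta T cells, where Gimap6 was called without WT-1.

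As means over cells rather than class sums, the 8 members reached 2789 CPM in naive T, 1867 CPM in CD8 T and 2250.0 CPM in NK cells, which puts NK and CD8 T cells above B and CD4 conventional T cells.

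With clusters at fixed shares Gimap6 in CD4 conventional T cells changed from 0.13 to -0.23. Fitted values near 0 changed sign. In CD8 T cells Gimap3 ran from -0.13 to 0.060 and Gimap7 from -0.43 to 0.011 with each library left out, and Gimap3 was 0.00 with cycling cells included. In CD4 conventional T cells Gimap1 ran from -0.20 to 0.32, Gimap8 from -0.068 to 0.18 and Gimap9 from -0.16 to 0.15. The Gimap1 difference between these classes ran from -0.12 to 0.48. In Treg, doublets kept gave -0.041 for Gimap1 and -0.026 for Gimap8, Leiden resolution 2 gave 0.023 for Gimap5 and GIMAP genes in the clustering 0.017. In NK cells, GIMAP genes in the clustering gave -0.017 for Gimap1 and -0.065 for Gimap8, and Leiden resolution 2 gave -0.0047 for Gimap8. In gamma-delta T cells, doublets kept gave 0.028 for Gimap4. In B cells, Gimap1 was 0.0020 without the count filter and 0.062 with doublets kept, and Leiden resolution 2 gave -0.0079 for Gimap5, -0.12 for Gimap8 and -0.0075 for Gimap9. With each library left out, the values ran in Treg from -0.19 to 0.19 for Gimap1, -0.14 to 0.10 for Gimap5 and -0.049 to 0.072 for Gimap8. In NK cells they ran from -0.058 to 0.082 for Gimap1, -0.00074 to 0.31 for Gimap3, -0.24 to 0.022 for Gimap6, -0.15 to 0.18 for Gimap8 and -0.23 to 0.14 for Gimap9. In gamma-delta T cells they ran from -0.31 to 0.15 for Gimap4 and -0.66 to 0.25 for Gimap8. In B cells they ran from -0.25 to 0.19 for Gimap1, -0.15 to 0.081 for Gimap3, -0.33 to 0.063 for Gimap4, -0.096 to 0.40 for Gimap5, -0.21 to 0.30 for Gimap8 and -0.23 to 0.32 for Gimap9.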
